A study of Mus musculus with 9 samples.

Results

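The small intestine of mice that were irradiated after a RIG-I agonist and an interferon receptor block was compared with that of mice that were irradiated and received neither agent. Genes were included where their scaled counts averaged 10 or more over the 6 libraries of both groups, which held for 14096 of the 19360 genes in the table. A scaled count is the number of reads of a gene divided by a size factor of its library. The mice referred to here as blockade mice were given a blocking antibody against IFNAR1, a chain of the receptor for type I interferons, 48 h before total body irradiation (TBI) at 9 Gy. They also received 3pRNA, an RNA with a 5′ triphosphate, 24 h before TBI, which the study's methods describe as complexed with a polymer carrier. TBI mice received 9 Gy, and their labels name no other agent. A further group, 3pRNA + TBI, had the agonist without the antibody, and its values are given beside the others for orientation. All were wild-type mice of the inbred strain BALB/c, with 3 mice per group, and RNA was extracted from small pieces of small intestine taken 12 h after TBI. The study's methods give an age of 6 to 12 weeks at the start of experiments for its mice in general, and the time of day of collection is not stated in the sources used here. The groups include no mice with carrier only, with an isotype control or with anti-IFNAR1 as the only agent, so that effects of these agents cannot be told apart from those of the combination. The comparison asks how close the transcriptome of the treated and blocked intestine was to that of irradiated intestine.

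RIG-I is a cytosolic sensor of triphosphate RNA that signals through MAVS and induces type I interferons. These bind IFNAR1 and IFNAR2, the kinases JAK1 and TYK2 are activated, and a complex that includes STAT2 and IRF9 binds the interferon-stimulated response element (ISRE) in promoters of antiviral genes. Interferon-γ uses a receptor of its own and induces immunity-related GTPases, guanylate-binding proteins and antigen presentation. In the gut, interferons act on epithelial and immune cells, and the wall around the mucosa holds smooth muscle, enteric neurons and attached fat.

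The blockade libraries held 6487053 to 11110223 reads in genes, the 3pRNA + TBI libraries 9526537 to 19946586 and the TBI libraries 7571441 to 16322856. Epithelial markers were abundant throughout. Villin (Vil1), of the brush border, had scaled counts of 32399.6, 36678 and 32262 in blockade mice and 37693, 42609 and 34146 in TBI mice. Lysozyme (Lyz1) of Paneth cells stood at 19409, 26139 and 22476 in blockade mice and 25647, 22978 and 22744 in TBI mice. A pair of libraries stood apart, each within its own group. Over the 16 smooth muscle markers, replicate 2 of TBI held 27446 scaled counts and replicates 1 and 3 held 10439.9 and 10051. The blockade mice held 38433, 24109.8 and 36485, so that replicate 2 of TBI lay in their range. Replicates 1 and 3 of TBI lay below all other libraries. Replicate 2 of the blockade group was the highest of the blockade mice in 47 of 56 interferon-stimulated genes and the lowest in fat and muscle markers. Values without either library are given where they differ.

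No gene was called between blockade mice and TBI mice by limma at an adjusted p under 0.05 (0 of 14096, or 0.0%). At an unadjusted p under 0.05 there were 1716 genes, 872 with the higher mean in blockade mice and 844 with the lower. The smallest adjusted p from limma was 0.105, shared by 3 genes that were all lower in blockade mice. These were Ifi27l2a, an interferon-induced gene, Ddit4, a stress-induced inhibitor of mTOR signalling, and Il18bp, the decoy protein that binds interleukin-18 (named after its values were seen). Ddit4 read 396, 447 and 469 in blockade mice and 715, 679 and 718 in TBI mice, a log2 difference of -0.69 (SE 0.09). The values of Il18bp were 208, 194 and 242 in blockade mice and 359, 328 and 371 in TBI mice, a log2 difference of -0.72 (SE 0.10). In both genes every blockade mouse lay below every TBI mouse by a gap larger than the spread within either group.

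Weighting the libraries by their quality, limma-voom called 231 genes higher (1.64%) and 59 lower (0.419%) in blockade mice, with a smallest adjusted p of 0.030. Log2 differences and SE printed beside an adjusted p from limma-voom are those of limma. In limma with all libraries no adjusted p was below 0.105. Without replicate 2 of TBI, limma called 305 genes higher and 42 lower, and without replicate 2 of the blockade group 4 higher and 5 lower. Of the genes called by limma-voom, 210 of the higher and 34 of the lower were also called without replicate 2 of TBI. The libraries left out were singled out in these same data, so such calls are no separate support for a difference. Groups did not overlap for 971 genes higher in blockade mice (6.89%) and 1715 lower (12.2%). Where the log2 difference also reached 1 in size, 153 genes were higher and 31 lower. The median difference over all genes was -0.02 log2, and 0.08 with the libraries scaled to equal totals so that differences of a size below this shift have no firm direction. Read by name, the 15 genes with the smallest p and a log2 difference of at least 1 included Gal, Nr1d1 and Dbp on the higher side, and 7 members of the interferon-stimulated list on the lower side.

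**Figure D1:**
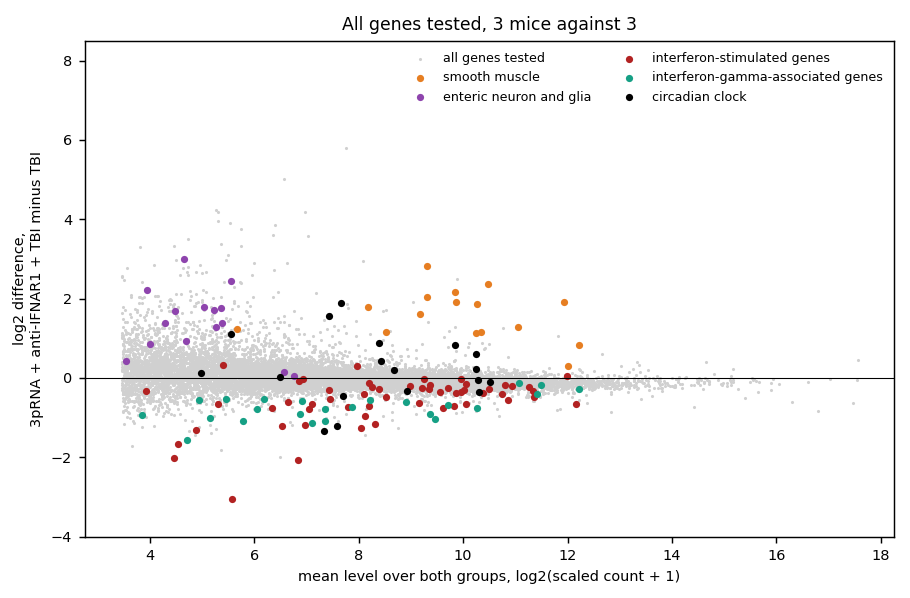
Mean level over the blockade and TBI mice (x axis, log2(scaled count + 1)) against the log2 difference of blockade minus TBI (y axis) for the 14096 genes, with 5 lists in colour. The 16 smooth muscle genes all lie above 0, and 53 of the 56 interferon-stimulated genes lie below 0.

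Most interferon-stimulated genes lay lower in the blocked intestine than in intestine that was irradiated alone, although limma called 0 of them. Of 56 tested, 53 had a negative difference, 17 (30.4%) were lower without overlap of the groups and 0 were higher without overlap, against 12.2% and 6.89% of all genes. The median log2 difference was -0.39. With limma-voom 8 of 56 passed, against 0.419% of all genes on this side, and among them were Ifi27l2a, Ly6e, Ly6a, Ifi44, Slfn5, Parp14 and Ifit2. In bulk tissue, fewer cells of a type and less RNA per cell cannot be told apart.

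Ifi27l2a, whose protein belongs to a family of interferon-induced mitochondrial proteins, had scaled counts of 52.9, 43.8 and 29.3 in blockade mice, 978, 839.6 and 857 in 3pRNA + TBI mice and 128, 149 and 278 in TBI mice. The blockade mice lay below every TBI mouse and the 3pRNA + TBI mice above them, and the log2 difference of blockade minus TBI was -2.07 (SE 0.27, adjusted p = 0.037 with limma-voom). Ifi44, an antiviral gene of unclear mechanism, read 11.8, 21.9 and 1.73 in blockade mice, 1499.6, 1259 and 1342 in 3pRNA + TBI mice and 76.4, 49.2 and 117 in TBI mice (log2 difference -3.06, SE 0.61). Its relative Ifi44l lay at 10.6, 6.25 and 5.18 in blockade mice and 24.7, 22.1 and 58.0 in TBI mice, with a log2 difference of -2.03 (SE 0.39). In Ifi44 and Ifi44l the values of the blockade mice rest on few reads, and 3 reads correspond to 3.13 to 5.18 scaled counts in these libraries.

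More abundant genes showed smaller differences. Ly6e, which encodes a surface protein that blocks entry of coronaviruses, stood at 1567, 1554 and 1367 in blockade mice, 8620.2, 7322 and 7495 in 3pRNA + TBI mice and 2245, 1956 and 2432 in TBI mice, a log2 difference of -0.56 (SE 0.10, adjusted p = 0.030 with limma-voom). For Ly6a, the stem cell antigen Sca-1, the values were 149, 230.4 and 197 in blockade mice, 3539.8, 2649.5 and 3359 in 3pRNA + TBI mice and 501, 290.4 and 522 in TBI mice (log2 difference -1.16, SE 0.22). The difference of Ly6a was larger without replicate 2 of TBI, the lowest TBI mouse for this gene, at -1.43 (adjusted p = 0.0012 from limma). That mouse was singled out in these same data, so this call is no separate support for a difference. Parp14, an ADP-ribosyltransferase, stood at 2915, 4243 and 3635 in blockade mice and 6095, 4909 and 5877 in TBI mice (log2 difference -0.66, SE 0.13). In Parp14 the 3 blockade mice lay wholly below the 3 TBI mice, with replicate 2 of TBI the nearest of the TBI mice.

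Among Schlafen genes, some of which restrict viral replication or lymphocyte growth, 3 were named for a small p. Slfn5 had 71.8, 92.8 and 58.7 scaled counts in blockade mice, 759, 755 and 881 in 3pRNA + TBI mice and 211, 109 and 203 in TBI mice, a log2 difference of -1.18 (SE 0.24). Slfn8 had 12.9, 7.30 and 10.4 in blockade mice, 163, 106 and 230.4 in 3pRNA + TBI mice and 29.8, 27.2 and 46.4 in TBI mice (log2 difference -1.66, SE 0.32). Slfn2 read 127, 118 and 81.1 in blockade mice and 236, 161 and 262 in TBI mice (log2 difference -1.01, SE 0.21). The groups did not overlap in any of these 3 genes. Slfn1 had no overlap either (log2 difference -0.81), while Slfn4 (-0.57), Slfn9 (-0.09) and the pseudogene Slfn10-ps (0.12) overlapped between the groups.

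The products of IFIT genes bind foreign RNA, and in Ifit1 the comparison turned on 1 mouse. Ifit2 lay at 111, 234 and 126 in blockade mice, 1453, 1134 and 1659 in 3pRNA + TBI mice and 469, 273 and 357 in TBI mice (log2 difference -1.27, SE 0.27). Ifit1 had 565, 1562 and 542 in blockade mice and 1246, 1046 and 1409.5 in TBI mice, so that replicate 2 of the blockade group exceeded every TBI mouse and the other blockade mice lay well below them. Without that mouse, limma called Ifit1 (log2 difference -1.15, adjusted p = 0.032), Ifit2 (-1.59, adjusted p = 0.038) and Ifit3 (-1.76, adjusted p = 0.028). Over all 14096 genes that fit called 4 higher and 5 lower. The mouse was singled out for its high values in this list, so these calls are no separate support for a difference. Ddx58, which encodes RIG-I, showed the same split, with 614, 1114 and 606 in blockade mice, 1755, 1532 and 1617 in 3pRNA + TBI mice and 934, 861 and 894 in TBI mice (log2 difference -0.26, 95% interval -0.69 to 0.16). Isg15, a ubiquitin-like modifier, read 149, 452 and 119 in blockade mice and 327, 228 and 476 in TBI mice. Mx1, an antiviral GTPase, stood at 72.9, 110.5 and 57.0 in blockade mice and 98.2, 117 and 142 in TBI mice (log2 difference -0.60, 95% interval -1.20 to -0.0043). In Ifit1, Ddx58, Isg15 and Mx1 the groups overlapped through replicate 2 of the blockade group, and in Ifit2 and Ifit3 they did not overlap. Apol9a, an interferon-responsive apolipoprotein L gene, had the same pattern, with 96.5, 316 and 62.1 in blockade mice, 679, 571 and 481 in 3pRNA + TBI mice and 179, 143 and 203 in TBI mice (log2 difference -0.48, 95% interval -1.47 to 0.51), as had its near copy Apol9b at 92.9, 311 and 74.2 in blockade mice and 175, 141 and 172 in TBI mice. With the smooth muscle covariate the difference was above 0 for Apol9a (0.34), Apol9b (0.41), Isg15 (0.26) and Ddx58 (0.018). Reads of the Apol9 copies may be split between them.

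Over the list, the mean log2 level was 7.93, 8.66 and 7.72 in blockade mice, 10.31, 10.10 and 10.24 in 3pRNA + TBI mice and 8.75, 8.40 and 8.88 in TBI mice. Replicate 2 of the blockade group lay above replicate 2 of TBI and below the other TBI mice. The median difference was -0.65 without replicate 2 of the blockade group and -0.56 without replicate 2 of TBI. With the smooth muscle mean as a covariate it was -0.03. That covariate was 10.63, 9.86 and 10.54 in blockade mice and 8.05, 10.08 and 8.10 in TBI mice. Since it differed between the groups, fits with it cannot separate muscle content from treatment. In TBI mice the library with the most muscle RNA had the lowest interferon list mean, and in blockade mice the library with the least muscle RNA had the highest. The part of tissue composition in the interferon differences was not tested.

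**Figure D2:**
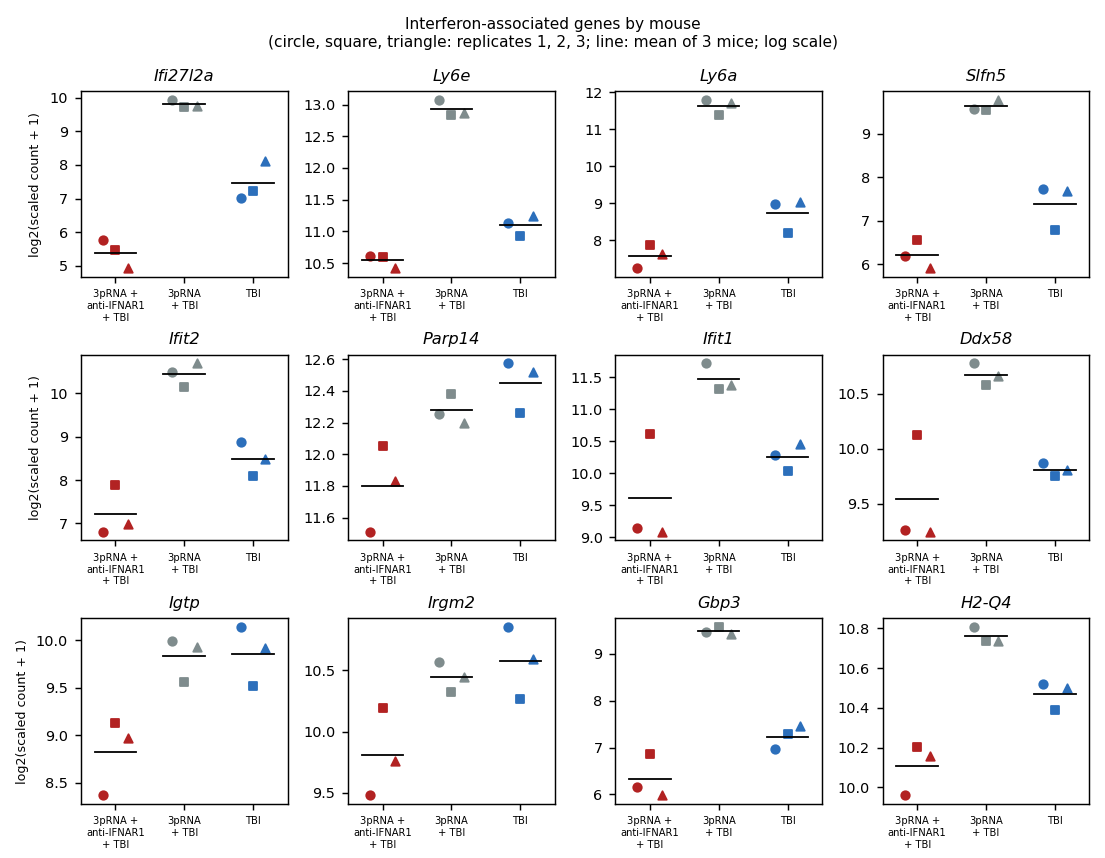
Scaled counts of 12 interferon-associated genes by mouse on a log2 axis (y, log2(scaled count + 1)), with blockade, 3pRNA + TBI and TBI mice from left to right and the mean of 3 mice as a line. In Ifit1 and Ddx58 replicate 2 of the blockade group (square) lies above all 3 TBI mice, and in the 10 other genes the blockade mice lie below every TBI mouse.

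Promoters of the list were searched for the ISRE core, a pair of GAAA motifs spaced by 2 bases (GAAANNGAAA, either strand, matches allowed to overlap). RefSeq windows of 300 bases (GRCm38.p6, from 250 bases before to 50 after a gene start) were found for 40 of the 56 genes, and 19 of these 40 (47.5%) held the pair in at least 1 window. The share was 3.75% of the 10002 tested genes with a window and 3.44% of all 32851 windows. The 5 genes below were those with the pair and the smallest p, and are shown because the site is where the complex downstream of IFNAR1 binds. Each is written 5′ to 3′ on the strand of the gene with the pair in capitals, and TTTCNNTTTC is the pair read on the other strand.
Slfn8 (chr11:83020819-83020888, minus strand): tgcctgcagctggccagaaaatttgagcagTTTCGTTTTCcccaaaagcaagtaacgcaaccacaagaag
Slfn5 (chr11:82951917-82951986, plus strand): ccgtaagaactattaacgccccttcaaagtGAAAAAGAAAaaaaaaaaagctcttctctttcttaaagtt
Ifit3 (chr19:34583343-34583446, plus strand): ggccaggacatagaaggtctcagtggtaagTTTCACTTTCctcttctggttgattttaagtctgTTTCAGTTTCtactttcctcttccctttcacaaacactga
Bst2 (chr8:71537557-71537632, minus strand): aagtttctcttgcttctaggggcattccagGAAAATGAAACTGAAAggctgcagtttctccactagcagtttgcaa
Stat2 (chr10:128270248-128270315, plus strand): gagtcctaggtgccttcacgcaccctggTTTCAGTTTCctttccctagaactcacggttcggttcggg
In Slfn8, the pair began 48 bases before the gene start, and in Stat2, which encodes a subunit of the complex itself, 222 bases before it. Ifit3 and Bst2 each held 2 matches, which in Bst2 overlapped by 1 GAAA. Bst2, which encodes tetherin and holds virus at the cell surface, had 180, 212 and 112 scaled counts in blockade mice, 1883, 1503 and 1525 in 3pRNA + TBI mice and 232, 228 and 371 in TBI mice (log2 difference -0.73, SE 0.24). The groups did not overlap for Bst2, Ifit3, Slfn5 and Slfn8, while for Stat2 (1010.4, 1501 and 1009.6 in blockade mice, 1513, 1323 and 1652 in TBI mice) they did. A match is a description of the letters, and binding was not measured.

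Genes associated with interferon-γ lay lower in all blockade mice, replicate 2 included. Of 24 tested, 0 had a positive difference, 17 (70.8%) were lower in blockade mice without overlap, against 12.2% of all genes, and the median log2 difference was -0.75. The list mean was 7.32, 7.33 and 7.43 in blockade mice, 8.69, 8.30 and 8.94 in 3pRNA + TBI mice and 8.27, 7.80 and 8.24 in TBI mice, so that the blockade mice lay below all others. Leaving out replicate 2 of either group gave medians of -0.75 (blockade) and -0.87 (TBI), and the smooth muscle covariate gave -0.43.

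Immunity-related GTPases, which attack the vacuoles of intracellular parasites, made up most of those that passed limma-voom. Igtp (Irgm3) had scaled counts of 329, 559 and 501 in blockade mice, 1019, 754 and 977 in 3pRNA + TBI mice and 1128, 730.2 and 969 in TBI mice, with a log2 difference of -1.04 (SE 0.21, adjusted p = 0.030 with limma-voom). Irgm2 had 713, 1171 and 866 in blockade mice, 1521, 1278 and 1395 in 3pRNA + TBI mice and 1854, 1233 and 1548 in TBI mice (log2 difference -0.76, SE 0.18). Ifi47, another GTPase of the family, had 367, 509.8 and 487 in blockade mice and 1009, 664 and 923 in TBI mice (log2 difference -0.92, SE 0.18). For Igtp and Irgm2 the 3pRNA + TBI mice lay among the TBI mice, and only the blockade mice were below this range.

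The guanylate-binding proteins, which target membranes of pathogens, were lower in blockade mice than in TBI mice in every member tested. Gbp3 had 70.6, 115 and 62.1 in blockade mice, 705, 763 and 687 in 3pRNA + TBI mice and 124, 155 and 175 in TBI mice (log2 difference -0.90, SE 0.20), and limma called it without replicate 2 of the blockade group (-1.16, adjusted p = 0.033). Replicate 2 was the highest blockade mouse for Gbp3, so this call is no separate support for a difference. Gbp2 had 200, 132 and 197 in blockade mice and 322, 280.2 and 266 in TBI mice (log2 difference -0.73, SE 0.19). Cxcl10, a chemokine that attracts activated T cells, had 10.6, 10.4 and 12.1 in blockade mice, 200.4, 83.5 and 517 in 3pRNA + TBI mice and 40.7, 17.0 and 60.3 in TBI mice, a log2 difference of -1.58 (SE 0.58). The blockade mice were close to each other for Cxcl10, and the other groups scattered widely.

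A different order held for Ido1 and Irf1, for which 3pRNA + TBI mice were the lowest. Ido1, which degrades tryptophan, stood at 388, 320 and 442 in blockade mice, 264, 288 and 279.8 in 3pRNA + TBI mice and 632, 613 and 495 in TBI mice (log2 difference of blockade minus TBI -0.60, SE 0.13, adjusted p = 0.032 with limma-voom). Irf1, a transcription factor for antigen presentation genes, stood at 2211, 2220.4 and 2634 in blockade mice, 1967, 2009 and 1727 in 3pRNA + TBI mice and 3548, 2875 and 2926 in TBI mice (log2 difference -0.40, SE 0.11). Both genes were thus lower than in TBI mice in each pretreated group, without overlap. The 3pRNA + TBI and the blockade comparison share their TBI mice.

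Antigen presentation by MHC class I had a small and uniform difference. All 19 genes tested were negative, 15 (78.9%) without overlap of the groups, against 12.2% of all genes, and the median log2 difference was -0.29. The median was -0.18 with the smooth muscle covariate. H2-Q4, a non-classical class I gene, had 995, 1176 and 1143 in blockade mice and 1465, 1341 and 1447 in TBI mice, a log2 difference of -0.36 (SE 0.08, adjusted p = 0.037 with limma-voom). Tap1, a subunit of the peptide transporter, had 618, 951 and 782 in blockade mice and 1436, 968 and 1157 in TBI mice (log2 difference -0.60, SE 0.17). Psmb9, a subunit of the immunoproteasome, had 295, 373 and 347 in blockade mice and 554, 425 and 473 in TBI mice (log2 difference -0.51, SE 0.13), and Nlrc5, the transactivator of class I genes, 115, 145 and 114 in blockade mice and 236, 169.8 and 225 in TBI mice (log2 difference -0.74, SE 0.20). Among 10 MHC class II genes 8 (80.0%) were lower without overlap, against 12.2% of all genes, with a median of -0.29, and -0.15 with the covariate. Ciita, their master regulator, stood at 235, 365 and 350.4 in blockade mice, 210.2, 295 and 193 in 3pRNA + TBI mice and 635, 365 and 474 in TBI mice (log2 difference -0.62, SE 0.23), with replicate 2 of both groups at the same value after rounding, and -0.08 with the covariate. In 3pRNA + TBI mice the class II list means lay at 9.37, 9.34 and 9.07, against 9.88, 9.50 and 9.84 in TBI mice, and those of class I at 10.53, 10.36 and 10.35, against 10.17, 10.02 and 10.17 in TBI mice.

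The receptor and the sensors themselves had small differences. Ifnar1, the target of the antibody, had 554, 622 and 642 in blockade mice and 701, 683 and 649.7 in TBI mice, a log2 difference of -0.16 (95% interval -0.37 to 0.04). An antibody acts on the protein, so that this RNA level does not check the block. Mavs, the adaptor of RIG-I, had 716, 687 and 732 in blockade mice and 741, 664 and 781 in TBI mice (-0.03, 95% interval -0.21 to 0.15, and above 0 with equal totals), and Tmem173, which encodes STING, 113, 84.4 and 104 in blockade mice and 116, 86.6 and 166 in TBI mice (-0.25, 95% interval -0.90 to 0.41, and 0.03 with the covariate). Jak1, the kinase bound to the receptor, stood at 1917, 1959 and 2042 in blockade mice and 2404, 2296 and 2332 in TBI mice (log2 difference -0.25, SE 0.07). Of 16 genes in this pathway list, 5 (31.2%) were lower without overlap, against 12.2% of all genes, and 1 (6.25%) higher, against 6.89%, and the median was -0.13.

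Circadian clock genes made up the second pattern, and here the values of blockade mice fell in the range of 3pRNA + TBI mice or near it. In the clock, CLOCK and BMAL1 activate Nr1d1, Dbp and the period genes, and REV-ERBα, the product of Nr1d1, represses Arntl and Nfil3. Limma-voom called 4 of 18 higher (Nr1d1, Dbp, Per3 and Hlf) and 2 lower (Nfil3 and Arntl), against 1.64% and 0.419% of all genes. Without overlap of the groups 2 (11.1%) were higher and 5 (27.8%) lower, against 6.89% and 12.2% of all genes. The list median was 0.17, and -0.13 with the smooth muscle covariate.

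Nr1d1, which encodes REV-ERBα, had scaled counts of 427, 273 and 239.9 in blockade mice, 328, 529.9 and 324 in 3pRNA + TBI mice and 55.3, 143 and 67.3 in TBI mice, a log2 difference of 1.89 (SE 0.34, adjusted p = 0.030 with limma-voom). Dbp, a transcription factor of clock output, had 379.9, 220 and 174 in blockade mice, 226, 309.7 and 267 in 3pRNA + TBI mice and 75.7, 122 and 60.3 in TBI mice (log2 difference 1.56, SE 0.30). Per3, a period gene, had 473, 474 and 331 in blockade mice and 186, 357 and 181 in TBI mice (log2 difference 0.87, SE 0.24). Replicate 2 of TBI was the highest TBI mouse for all 3 genes, and for Per3 it overlapped with the lowest blockade mouse. In the opposite direction, Nfil3, a repressor that competes with Dbp, had 61.2, 96.9 and 117 in blockade mice, 114, 90.6 and 93.3 in 3pRNA + TBI mice and 232, 202 and 247 in TBI mice (log2 difference -1.34, SE 0.21). Arntl, which encodes BMAL1, had 72.9, 112 and 171 in blockade mice, 145, 111 and 91.1 in 3pRNA + TBI mice and 294, 188 and 309.7 in TBI mice (log2 difference -1.20, SE 0.30). Clock, its partner, stood at 1063, 1111 and 1175 in blockade mice and 1494, 1411 and 1369 in TBI mice (log2 difference -0.35, SE 0.12), again without overlap.

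Without replicate 2 of TBI, limma called 6 of 18 clock genes higher and 2 lower, against 305 and 42 of all 14096 genes. Tef and Nr1d2 were added on the higher side. That mouse lay nearest to the blockade mice in Nr1d1, Dbp, Per3 and Arntl, so leaving it out widened these differences. Nr1d1 then had a log2 difference of 2.30 (adjusted p = 9.0e-04 from limma) and Arntl of -1.43 (adjusted p = 0.034 from limma). The mouse was singled out in these same data, so these calls are no separate support for a difference. Among TBI mice, replicate 2 was the highest in smooth muscle markers and in Nr1d1, Dbp and Per3. Among blockade mice, replicate 1 had the most muscle RNA and was the highest in Nr1d1 and Dbp. Replicate 2 of the blockade group had the least muscle RNA and lay above replicate 3 in Nr1d1, Dbp and Per3. The part of tissue composition was not tested. With the smooth muscle covariate the log2 difference was 1.0 for Nr1d1, 0.89 for Dbp, 0.29 for Per3, -1.09 for Nfil3 and -0.65 for Arntl, and limma called 0 genes in that fit. For Arntl, replicate 2 of TBI was the nearest TBI mouse to the blockade mice.

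**Figure D3:**
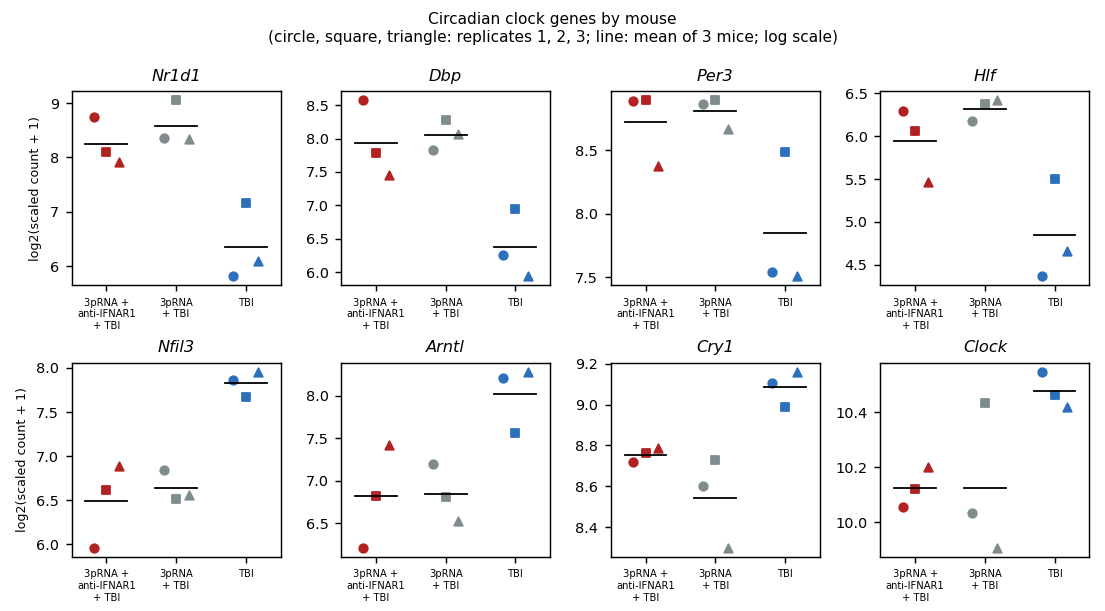
Scaled counts of 8 clock genes by mouse (y, log2(scaled count + 1)) in blockade, 3pRNA + TBI and TBI mice, with the mean of 3 mice as a line. Nr1d1 and Dbp are higher and Nfil3, Arntl, Cry1 and Clock lower in every blockade mouse than in every TBI mouse, and in Nr1d1, Per3 and Hlf replicate 2 of TBI (square) is the highest TBI mouse.

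Epithelial defence genes were mixed, with the REG3 lectins on the lower side and Reg4 on the higher. Reg3a had 288, 417 and 452 scaled counts in blockade mice, 541, 477 and 657 in 3pRNA + TBI mice and 676, 715 and 740.1 in TBI mice, a log2 difference of -0.90 (SE 0.16, adjusted p = 0.030 with limma-voom). Reg3g, a lectin that kills Gram-positive bacteria, had 57154, 79215 and 112190 in blockade mice, 102499, 75345 and 134099.6 in 3pRNA + TBI mice and 134504, 128508 and 168151 in TBI mice (log2 difference -0.84, 95% interval -1.48 to -0.20). Reg3b was at 110587, 138701 and 181138 in blockade mice and 204475, 205783 and 249556 in TBI mice (log2 difference -0.64, 95% interval -1.20 to -0.08). For all 3 lectins the blockade mice lay below the TBI mice, and for Reg3g the 3pRNA + TBI mice were spread over both ranges. Reg4, of enteroendocrine and deep crypt cells, was at 1519.7, 1714 and 1065 in blockade mice, 733, 1149 and 665 in 3pRNA + TBI mice and 769, 661 and 876 in TBI mice (log2 difference 0.88, SE 0.22, adjusted p = 0.044 with limma-voom). Lypd8, which keeps flagellated bacteria off the epithelium, was at 29971, 40976 and 35939 in blockade mice, 83628, 80549.5 and 66246 in 3pRNA + TBI mice and 48303, 47907 and 54471 in TBI mice (log2 difference -0.50, SE 0.17). Of 17 genes in this list 5 (29.4%) were lower without overlap, against 12.2% of all genes, and 1 (5.88%) higher, against 6.89%, and the median was -0.39.

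A few genes of nucleoside breakdown lay lower. Limma-voom called 3 of 15 genes lower, against 0.419% of all genes. These were Pnp, the purine nucleoside phosphorylase, Xdh, which makes urate, and Upp1, the uridine phosphorylase. Pnp had 683, 783 and 873 in blockade mice, 931, 830.1 and 680.3 in 3pRNA + TBI mice and 1238, 1088 and 1184 in TBI mice (log2 difference -0.59, SE 0.12). Xdh had 3285, 4229 and 4035 in blockade mice, 5610.2, 5326 and 4728 in 3pRNA + TBI mice and 6373, 5274 and 5283 in TBI mice (log2 difference -0.55, SE 0.12). The 3pRNA + TBI mice lay with the blockade mice for Pnp and nearer to the TBI mice for Xdh. The list median was -0.15, and -0.04 with equal totals.

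Sterol synthesis showed a small difference in 1 direction. Of 24 genes 23 were negative and 11 (45.8%) were lower without overlap, against 12.2% of all genes, with a median of -0.20, and -0.10 with equal totals. Cyp51, a demethylase of the pathway, had 2468, 2699 and 2521 in blockade mice, 2920, 2357 and 2534 in 3pRNA + TBI mice and 3479.7, 3491 and 3194 in TBI mice (log2 difference -0.40, SE 0.09), and Idi1, the isopentenyl diphosphate isomerase, had 174, 172 and 167 in blockade mice and 228, 228 and 235 in TBI mice (log2 difference -0.43, SE 0.10). Both passed limma-voom. Apoc2, the cofactor of lipoprotein lipase, was at 125, 119.9 and 89.7 in blockade mice, 116, 84.1 and 119 in 3pRNA + TBI mice and 187, 341 and 278 in TBI mice (log2 difference -1.24, SE 0.22). Pla2g4c, a cytosolic phospholipase, was at 232, 321 and 207 in blockade mice, 268, 397 and 230.4 in 3pRNA + TBI mice and 662, 701 and 455 in TBI mice (log2 difference -1.26, SE 0.23). For Cyp51, Apoc2 and Pla2g4c the 3pRNA + TBI mice were also below all TBI mice.

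Genes of drug metabolism leaned the other way, with 15 of 21 positive, 5 (23.8%) higher without overlap against 6.89% of all genes, and a median of 0.23, which was 0.08 with the smooth muscle covariate. Gstm1, a glutathione transferase, had 936, 603 and 732 in blockade mice, 764, 879 and 674 in 3pRNA + TBI mice and 513, 443 and 309.7 in TBI mice (log2 difference 0.85, SE 0.20, adjusted p = 0.040 with limma-voom). Cyp2c55, a cytochrome P450 known for induction by foreign compounds, had 888, 179 and 361 in blockade mice, 590.4, 1638 and 302 in 3pRNA + TBI mice and 134, 50.9 and 17.4 in TBI mice, a log2 difference of 2.94 (SE 0.78). Its values varied widely within each group. The metallothioneins Mt1 and Mt2, which bind zinc and respond to glucocorticoids, were higher without overlap, with 1401, 1048 and 777 for Mt1 in blockade mice and 627, 582 and 603 in TBI mice (log2 difference 0.79, SE 0.19), and 636, 392 and 216 for Mt2 in blockade mice and 210.3, 153 and 166 in TBI mice (log2 difference 1.11, SE 0.30). Of 12 glucocorticoid-responsive genes 7 were positive and 5 negative, with Ddit4 among the negative. Without overlap 2 (16.7%) were higher and 1 (8.33%) lower, against 6.89% and 12.2% of all genes. The list median was 0.14, and -0.32 with the smooth muscle covariate.

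Genes of the gut wall had large differences, which widened without replicate 2 of TBI. All 16 smooth muscle markers were positive, with a median log2 difference of 1.70, and 14 of them passed limma-voom, against 1.64% of all genes, but 0 were free of overlap. Over the markers the summed scaled counts were 38433, 24109.8 and 36485 in blockade mice, 32113, 33666 and 40324 in 3pRNA + TBI mice and 10439.9, 27446 and 10051 in TBI mice. No marker was at 0 in any library. Replicate 2 of TBI had a higher muscle sum than replicate 2 of the blockade group, and replicates 1 and 3 of TBI lay below all other libraries. Myh11, the smooth muscle myosin, had 6953, 3795 and 6543 in blockade mice and 928, 4551 and 767 in TBI mice, and Acta2, smooth muscle actin, 3213, 2104 and 3429 in blockade mice and 811, 2185 and 907 in TBI mice. Without replicate 2 of TBI, 15 of the 16 were called higher by limma, against 305 of all 14096 genes, and the median was 2.43. That mouse was set apart by these same markers, so these calls are no separate support for a difference.

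Enteric neuron and glia genes moved with the muscle. All 15 tested were positive, 5 (33.3%) were higher without overlap, against 6.89% of all genes, 8 passed limma-voom, against 1.64%, and the median was 1.39. Gal, the neuropeptide galanin, had 50.6, 27.1 and 48.3 in blockade mice, 53.4, 36.1 and 54.9 in 3pRNA + TBI mice and 2.91, 15.3 and 1.16 in TBI mice (log2 difference 3.01, SE 0.61, adjusted p = 0.030 with limma-voom). Other genes of the higher side, Slc6a17, a transporter of synaptic vesicles (48.2, 30.2 and 51.8 in blockade mice and 3.64, 17.0 and 3.48 in TBI mice), and Casq2, a calcium-binding protein of muscle (42.3, 42.7 and 48.3 in blockade mice and 10.9, 22.1 and 5.80 in TBI mice), had replicate 2 as the highest TBI mouse too. Tmod1, which caps actin filaments, Chn1, a neuronal GTPase-activating protein, and Nsg2, of neuronal vesicles, had log2 differences of 1.91, 1.78 and 1.86, with replicate 2 the highest TBI mouse in each. With the smooth muscle covariate the neuron median was 0.32. Mtcl1, a microtubule crosslinking protein, had 49.4, 42.7 and 48.3 in blockade mice and 15.3, 22.1 and 12.8 in TBI mice (log2 difference 1.46, SE 0.23), the smallest p of the higher side among genes with a log2 difference of at least 1 and no overlap. Hlx, a homeobox gene of gut mesenchyme, came next with 54.1, 39.6 and 44.9 in blockade mice and 16.7, 20.4 and 20.9 in TBI mice (log2 difference 1.21, SE 0.20).

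**Figure D4:**
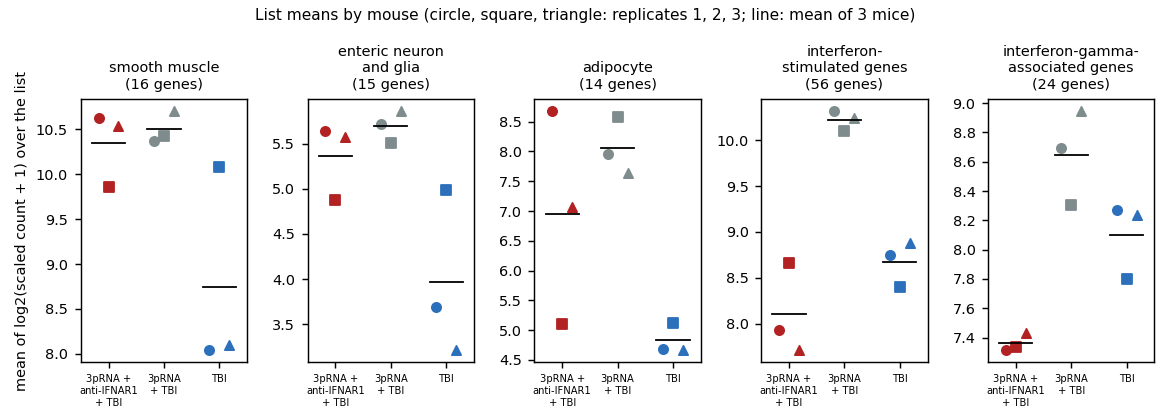
Mean log2(scaled count + 1) over 5 lists (y axis of each panel) for each blockade, 3pRNA + TBI and TBI mouse, with the mean of 3 mice as a line. Replicate 2 of TBI (square) stands with the blockade mice in smooth muscle and neuron genes, and replicate 2 of the blockade group stands with the TBI mice in adipocyte genes, while the interferon-γ list separates all blockade mice from all TBI mice.

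Fat markers varied from mouse to mouse. Cfd, the adipocyte protease adipsin, had scaled counts of 498, 0 and 65.6 in blockade mice, 344, 611 and 183 in 3pRNA + TBI mice and 0, 0 and 0 in TBI mice. A count of 0 allows up to 3 reads, or 2.18 to 5.09 scaled counts in the TBI libraries, for counting error only. Adipoq, the hormone adiponectin, gave 205, 0 and 27.6 in blockade mice and 0, 0 and 0 in TBI mice, so that replicate 2 of the blockade group again lay with the TBI mice. Of 14 adipocyte genes 12 were positive, and the median log2 difference was 1.87, also when the 3 genes at 0 in all TBI libraries were set to that floor, and 0.71 with the smooth muscle covariate. The part of attached fat in other differences was not tested.

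Epithelial cell types had small median differences. In the stem cell list 3 of 18 genes, Rgmb, Ascl2 and Lrig1, were higher without overlap (16.7%, against 6.89% of all genes) and 1 lower (5.56%, against 12.2%), and the median was 0.11. Lgr5, the receptor that marks crypt base stem cells, had 104, 128 and 131 in blockade mice, 61.4, 91.2 and 86.7 in 3pRNA + TBI mice and 105, 69.6 and 91.6 in TBI mice (log2 difference 0.46, 95% interval 0.02 to 0.89). Lyz1 had a log2 difference of -0.08 (95% interval -0.36 to 0.20) in the direction of lower levels in blockade mice, which reversed with libraries scaled to equal totals, and 3pRNA + TBI mice had 15272, 14633 and 15862. The 12 Paneth cell genes had a median of -0.04 and the 25 enterocyte genes one of -0.10, with 0 enterocyte genes free of overlap. Itgb6, an epithelial integrin subunit, had 855, 908 and 980.3 in blockade mice and 900.1, 1304 and 1093 in TBI mice (log2 difference -0.25, 95% interval -0.55 to 0.05). The Paneth cell and enterocyte medians lay above 0, at 0.07 and 0.01, with equal totals.

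Genes that respond to irradiation through p53 had small differences. Cdkn1a, the cell cycle inhibitor induced by p53, stood at 4801, 5335 and 4843 in blockade mice and 5556, 5981 and 5145 in TBI mice (log2 difference -0.15, 95% interval -0.34 to 0.03). The 25 p53 targets had a median of -0.09 (0.02 with equal totals), with 2 (8.0%) higher and 1 (4.0%) lower without overlap, against 6.89% and 12.2% of all genes. Among 24 cell cycle genes 21 were positive and 5 (20.8%) higher without overlap, against 6.89% of all genes, with a median of 0.14, and none passed limma-voom. Pcna, the sliding clamp of replication, went against these, at 493, 487 and 506 in blockade mice and 569.8, 525 and 552 in TBI mice (log2 difference -0.15, 95% interval -0.31 to 0.02). Chemokines (15 genes) and inflammatory genes (14 genes) also had no member called by limma-voom. Over all genes it called 1.64% higher and 0.419% lower. In lists of this size, the cell cycle list included, 0 calls lie near these shares. Ccl2, which attracts monocytes, read 5.88, 3.13 and 5.18 in blockade mice and 21.8, 10.2 and 23.2 in TBI mice, at the lower end of what these depths can measure. Intraepithelial T cell genes had a median of -0.30, and Itgae, which encodes the integrin that holds these cells in the epithelium, was at 156, 145 and 185 in blockade mice, 124, 93.5 and 92.2 in 3pRNA + TBI mice and 201, 207 and 201 in TBI mice (log2 difference -0.33, 95% interval -0.64 to -0.02).

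A few further genes of the 15 per direction belonged to no list. B3gnt7, a glycosyltransferase, had 245, 217 and 297 in blockade mice, 206, 284 and 354 in 3pRNA + TBI mice and 525, 357 and 759 in TBI mice (log2 difference -1.06, SE 0.26). Igkv4-68, an immunoglobulin light chain segment whose level follows the B cell clones in a piece of tissue, had 27.1, 62.5 and 20.7 in blockade mice and 106, 205 and 110.2 in TBI mice (log2 difference -2.0, SE 0.41). On the higher side, Nfatc4, a calcium-regulated transcription factor, had 54.1, 36.5 and 65.6 in blockade mice and 18.9, 23.8 and 18.6 in TBI mice (log2 difference 1.28, SE 0.24). Angptl2, a secreted angiopoietin-like protein, had 225, 136 and 202 in blockade mice and 88.0, 115 and 66.1 in TBI mice (log2 difference 1.06, SE 0.23), and Serpini1, the inhibitor neuroserpin, 40.0, 40.7 and 41.4 in blockade mice and 20.4, 20.4 and 13.9 in TBI mice (log2 difference 1.14, SE 0.24). For all 5 genes the groups did not overlap, and the 3pRNA + TBI mice lay below all TBI mice for B3gnt7 and Igkv4-68 and above them for the other 3.

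Genes of hormone-producing cells were mostly positive in blockade minus TBI, with 12 of 16 enteroendocrine genes positive and 5 (31.2%) higher without overlap, against 6.89% of all genes, and 1 (6.25%) lower, against 12.2%. The list median was only 0.07, and -0.07 with the smooth muscle covariate. Gcg, which encodes proglucagon, had 836, 978 and 839 in blockade mice, 785, 848 and 686 in 3pRNA + TBI mice and 704, 655 and 697 in TBI mice (log2 difference 0.36, SE 0.10). Sst, which encodes somatostatin, had 223, 238 and 192 in blockade mice, 174, 201 and 167 in 3pRNA + TBI mice and 161, 168 and 166 in TBI mice (log2 difference 0.39, SE 0.11). Scg3, a granin of secretory granules, had 40.0, 43.8 and 57.0 in blockade mice and 18.9, 34.0 and 20.9 in TBI mice (log2 difference 0.93, SE 0.25, adjusted p = 0.044 with limma-voom), with replicate 2 again the highest TBI mouse. Kit, a receptor of the pacemaker cells of Cajal, had 348, 382 and 392 in blockade mice, 316, 363 and 350 in 3pRNA + TBI mice and 316, 284 and 223 in TBI mice (log2 difference 0.46, SE 0.12), and Prkcq, a kinase of the same cells and of T cells, 50.6, 38.6 and 63.9 in blockade mice and 18.2, 28.9 and 26.7 in TBI mice (log2 difference 1.02, SE 0.24). Neither gene overlapped between the groups, while Ano1 and Etv1, also of the list for these pacemaker cells, did. Of the 5 genes in that list, 4 were positive and 2 (40.0%) higher without overlap, against 6.89% of all genes. The list median was 0.55, and -0.05 with the smooth muscle covariate.

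**Figure D5:**
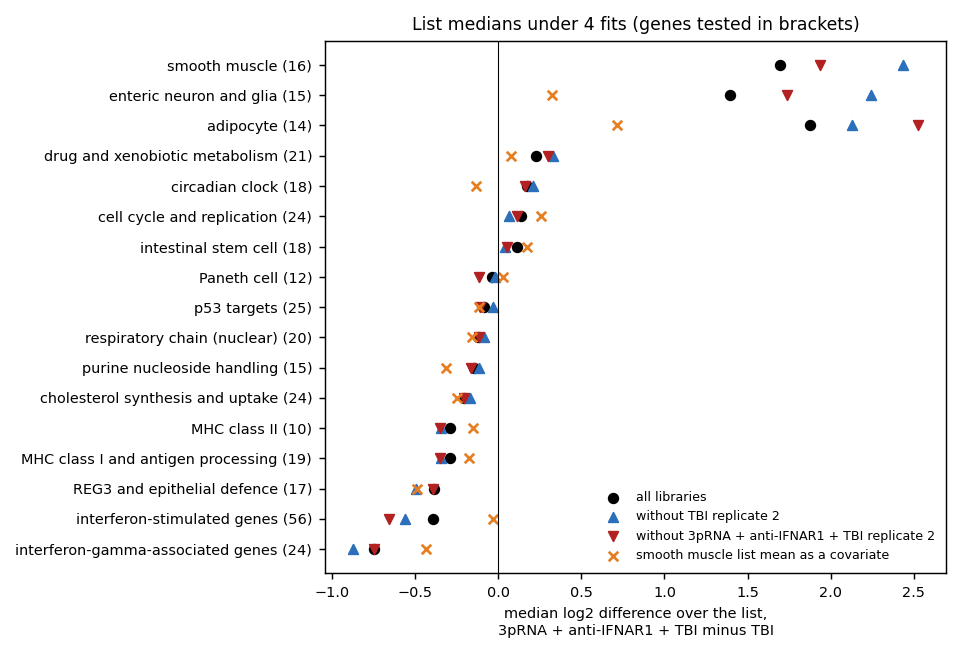
Median log2 difference of blockade minus TBI mice (x axis) for 17 gene lists under 4 fits (3 for smooth muscle, the covariate of the fourth), with the number of genes tested in brackets. The interferon-γ median stays between -0.87 and -0.43 in these 4 fits, while the interferon-stimulated median runs from -0.65 to -0.03 the smooth muscle median lies between 1.70 and 2.43, and the neuron median between 0.32 with the covariate and 2.24.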

How the data were processed

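RNA from small intestine of 9 BALB/c mice, 3 per group, was sequenced from libraries of a kit that does not keep strand (TruSeq RNA v2). Reads were aligned with STAR in 2 passes, counted per gene with HTSeq on build mm9 and scaled with DESeq by the authors, without versions in the sources used here. The deposited table holds this signal, a read count divided by a size factor plus 1, and the added 1 was subtracted here. Steps between low values gave the reads behind each library. The authors' comparison tables, which hold log2 ratios and p-values, were not used.

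Genes whose scaled counts averaged 10 or more over the 6 libraries were compared as log2(scaled count + 1) in limma 3.58.1 (R 4.3.3) on the 3 groups, with Benjamini-Hochberg adjustment and a threshold of 0.05. Log2 differences are blockade minus TBI on this scale, which understates those of low genes, and SE is the standard error from limma. Alternatives were limma-voom with sample quality weights on the recovered reads, equal totals, a smooth muscle covariate, other filters and pseudocounts, a replicate block and leaving out each library. With 3 mice against 3, an exact permutation test cannot go below p = 0.1. Nothing in the labels says whether mice shared a cage or day. The members and gene lists were chosen with earlier results of these data known. Named genes were, per direction, the 15 with the smallest p among those without overlap and with a log2 difference of at least 1, up to 4 per list by p, and genes the study names. A further part of this rule, by a count model, was not applied. Other list members, such as Isg15, Ifit1, Irf1, Cxcl10, Per3 and Clock, were named after their values were seen. Single genes that the rule names but the text leaves out are not reported here. The fits were tested on simulated data. Promoter sequences came from RefSeq (GRCm38.p6), not the authors' build. Tables and plots were made in Python 3.11.15.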

Additional observations from a re-analysis of the deposited data

How the results depend on the processing

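The count of genes called by limma was 0 with all libraries and remained 0 under other pseudocounts, filters and library scalings, without a variance trend, with robust moderation, in the fit of both groups alone, with the smooth muscle covariate and at an adjusted p under 0.10. It was 290 with limma-voom and sample quality weights (231 higher and 59 lower in blockade mice). Leaving out 1 library gave 0 to 347 calls, with 347 without replicate 2 of TBI, 9 without replicate 2 of the blockade group and 0 without any other library. The replicate block gave 1 call, Pla2g4c. The smooth muscle covariate itself differed between the groups, so the absence of calls in that fit carries little weight. Same-numbered blockade and TBI mice had correlations of their deviations of -0.19, 0.07 and 0.19, within a range of -0.26 to 0.23 over all pairs. Not every mouse correlated best with its own number. No pairing by number was seen, but deviations from means of 3 mice cannot exclude a shared day or cage. Checks of the single genes named, and of Irf7, kept direction and side of the threshold in 2158 cases, passed the threshold only under an alternative in 105 and changed direction in 22, of which the cause was not tested. With the smooth muscle covariate the log2 difference became positive for Irf7 (0.31), Ddx58 (0.018), Lyz1 (0.052), Apol9a (0.34), Apol9b (0.41), Slfn9 (0.41), Isg15 (0.26), Mavs (0.079) and Tmem173 (0.028). With equal totals it did so for Lyz1 (0.025), Mavs (0.072) and Slfn9 (0.014). Slfn10-ps was negative with limma-voom (-0.25). With 1 library left out it ran from -0.64 to 0.0099 for Irf7, from -0.19 to 0.029 for Lyz1, from -1.15 to 0.014 for Apol9a, from -0.95 to 0.073 for Apol9b, from -0.096 to 0.021 for Mavs, from -0.32 to 0.069 for Slfn9 and from -0.23 to 0.49 for Slfn10-ps. List medians stayed within the spread between replicates in 343 checks and moved past it in 13. That spread was the standard deviation of the list mean in the more variable group, which single outlying libraries widen. The shift of the interferon-stimulated median from -0.39 to -0.03 with the covariate lay within it. Count models (edgeR's quasi-likelihood test and DESeq2) were not run. The deposited values are scaled and carry an added 1, and the reads that limma-voom used were recovered from them. The main limits are 3 mice per group, the unequal muscle content of the TBI libraries and a depth at which 3 reads correspond to up to 5.18 scaled counts.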
